A study of Mus musculus with 4 samples.

Results

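The genes described here were chosen by symbol, and all but Mrps36 encode protein components of the mitochondrial ribosome. They were taken as every gene whose symbol starts with Mrpl or Mrps followed by a number. This gave 76 of the 23366 gene symbols in the 4 read-count files. By symbol, 47 Mrpl genes were counted as large subunit and 29 Mrps genes as small subunit. For Mrps30, Mrps18a and Mrps36 this differs from the known place of the protein. The RNA came from R1, an embryonic stem cell line of the mouse (strain 129X1 x 129S1), and was selected for poly(A) tails. The cells were grown with serum and the self-renewal cytokine LIF on gelatin. In 2 libraries the cells carried a hairpin RNA against Cyrano, a long noncoding RNA with a site for the microRNA miR-7, and in the other 2 libraries a non-targeting hairpin. Both hairpins came from the vector pSicoR-Ef1a-mCh-Puro, which also expresses a red fluorescent protein and puromycin resistance, and transfected cells of all 4 libraries were enriched through one of these markers. The labels name no clone, so each library is taken as a transfected population, and they do not say which enrichment served which library.

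Mitochondria translate the few proteins encoded in their own DNA, all of them subunits of the respiratory chain and of ATP synthase, on a ribosome of their own. Its rRNAs are transcribed from mitochondrial DNA. Every one of its proteins is made from a nuclear gene, translated in the cytosol and imported. Many of these proteins descend from bacterial ribosomal proteins, and others arose in the mitochondrial lineage and have no bacterial counterpart. Stem cells hold this machinery while they draw much of their energy from glycolysis. Promoters of such housekeeping genes often hold binding motifs of the factors NRF1, GABP (of the ETS family) and YY1, which are known regulators of nuclear genes for mitochondrial proteins.

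The promoters of Mrpl39, Mrpl30, Mrpl34 and Mrpl52 are shown because these 4 genes had the lowest p values of the large subunit. Each window runs 5′ to 3′ on the gene's strand, 250 bases before to 50 after its start, from RefSeq on GRCm38.p6. Capitals mark a match on either strand to GCATGCG for NRF1, CCGGAAG for ETS factors or ATGGCGG for YY1, which do not overlap each other here. The windows lie at chr16:84735195-84735494 on the minus strand for Mrpl39, and on the plus strand at chr1:37890227-37890526 for Mrpl30, chr8:71464676-71464975 for Mrpl34 and chr14:54426659-54426958 for Mrpl52.
Mrpl39: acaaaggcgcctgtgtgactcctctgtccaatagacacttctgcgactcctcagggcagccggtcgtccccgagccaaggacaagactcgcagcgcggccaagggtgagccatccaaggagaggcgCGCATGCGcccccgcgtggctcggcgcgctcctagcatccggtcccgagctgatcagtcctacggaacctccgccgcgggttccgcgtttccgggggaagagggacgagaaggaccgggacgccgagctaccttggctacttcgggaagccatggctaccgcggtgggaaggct
Mrpl30: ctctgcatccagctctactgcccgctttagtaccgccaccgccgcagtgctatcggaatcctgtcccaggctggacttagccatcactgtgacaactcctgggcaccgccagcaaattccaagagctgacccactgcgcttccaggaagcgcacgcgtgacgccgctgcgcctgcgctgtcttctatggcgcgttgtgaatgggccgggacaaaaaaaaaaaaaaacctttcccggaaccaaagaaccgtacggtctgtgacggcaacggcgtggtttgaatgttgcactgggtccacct
Mrpl34: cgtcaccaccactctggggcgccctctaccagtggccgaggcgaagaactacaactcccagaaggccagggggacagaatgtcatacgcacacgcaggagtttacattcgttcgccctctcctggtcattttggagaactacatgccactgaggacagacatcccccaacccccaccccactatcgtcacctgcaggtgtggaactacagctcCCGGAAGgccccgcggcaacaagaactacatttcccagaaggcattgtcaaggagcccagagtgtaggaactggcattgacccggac
Mrpl52: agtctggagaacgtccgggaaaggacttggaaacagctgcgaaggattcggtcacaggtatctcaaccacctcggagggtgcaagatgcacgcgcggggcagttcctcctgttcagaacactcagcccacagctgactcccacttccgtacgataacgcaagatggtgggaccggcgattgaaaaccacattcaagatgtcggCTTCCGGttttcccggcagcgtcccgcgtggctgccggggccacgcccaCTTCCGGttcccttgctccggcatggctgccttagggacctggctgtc
Mrpl39 holds an NRF1 match on each strand, which overlap since the motif is nearly its own reverse complement. Mrpl34 holds 1 ETS match, Mrpl52 holds 2, and Mrpl30 holds none of the 3 motifs. Windows were found for 67 of the 76 genes. Among these 67, 24 (35.8%) had an ETS match, 8 (11.9%) an NRF1 match and 13 (19.4%) a YY1 match. Over the 9771 tested genes with a window the shares were 19.5%, 7.48% and 9.24%. An ETS match was found in 13 of 41 large subunit windows (31.7%) and 11 of 26 small subunit windows (42.3%), and an NRF1 match in 7 large and 1 small subunit windows. The median log2 fold change of knockdown over control was 0.16 for the 24 members with an ETS match and 0.15 for the 43 without. It was 0.09 for the 8 with an NRF1 match and 0.15 for the 59 without, and 0.18 for the 13 with a YY1 match and 0.15 for the 54 without, as a description with no test.

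All 76 genes passed the filter on low counts. Raw counts of single members ran from 81 to 10538 in a library, and the counts over all genes summed to 22321102 and 20761783 in knockdown libraries 1 and 2 and to 16854403 and 19138196 in control libraries 1 and 2. Cyrano, listed as 1700020I14Rik, had 3.99 and 3.16 CPM in the knockdown libraries, against 24.8 and 15.1 CPM in the controls (log2 fold change -2.48 ± 0.30, edgeR adjusted p = 0.0070). CPM is the count relative to library size, with sizes scaled by edgeR's TMM factors. The precursor of cytosolic rRNA, Rn45s, made up 12.3% and 11.03% of gene counts in the knockdown libraries, against 17.5% and 15.9% in the controls. All 8 embryonic stem cell markers were present, with a summed level before TMM scaling of 4254 and 4308 CPM after knockdown and 4253 and 4674 CPM in the controls. By edgeR none of them was called. In 4 of the 8 both knockdown libraries lay below both controls and in 2 above both, where 21.3% and 22.3% of all tested genes were so placed. Nanog and Esrrb were lower after knockdown at an unadjusted p under 0.05, where 5.43% of all tested genes were. Nanog had 129 and 133 CPM after knockdown, against 216 and 228 CPM in the controls (log2 fold change -0.76 ± 0.14, edgeR adjusted p = 0.070). DESeq2 called 1 of the 8 lower, where it called 1.36% of genes with an adjusted p in either direction.

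Mitoribosomal mRNAs leaned higher after Cyrano knockdown in both subunits, by small amounts, and none of the 76 passed the test. The median log2 fold change was 0.16 over the 47 large subunit genes and 0.20 over the 29 small subunit genes, against -0.002 over all 13199 genes tested. Subunits follow the symbols here. With subunits taken from the structure, the medians were 0.17 over 49 large and 0.18 over 26 small subunit genes. A log2 fold change above 0 was found in 36 of the 47 large subunit genes and 25 of the 29 small subunit genes, or 80.3% of the 76, against 49.8% of all tested genes. The 2 controls differed from each other in a like way. In control library 2, 78.9% of the 76 were higher than in control library 1, against 51.5% of all tested genes. At an adjusted p under 0.05 by edgeR's quasi-likelihood test no member was higher and none lower, where 0.0379% of all tested genes were called higher and 0.0455% lower (0.0833% in all). At an unadjusted p under 0.05, 15 members were higher and none lower (19.7% and 0%), where 6.18% of all tested genes were higher and 5.43% lower. Both knockdown libraries lay above both controls in 36 members (47.4%) and below both in 5 (6.58%), where 22.3% and 21.3% of all tested genes were so placed. DESeq2 called 1 member, Mrpl39, where it called 1.36% of the genes to which it gave an adjusted p, and limma-voom called none. In bulk RNA, more cells that express a gene and more of its RNA per cell cannot be told apart.

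**Figure D1:**
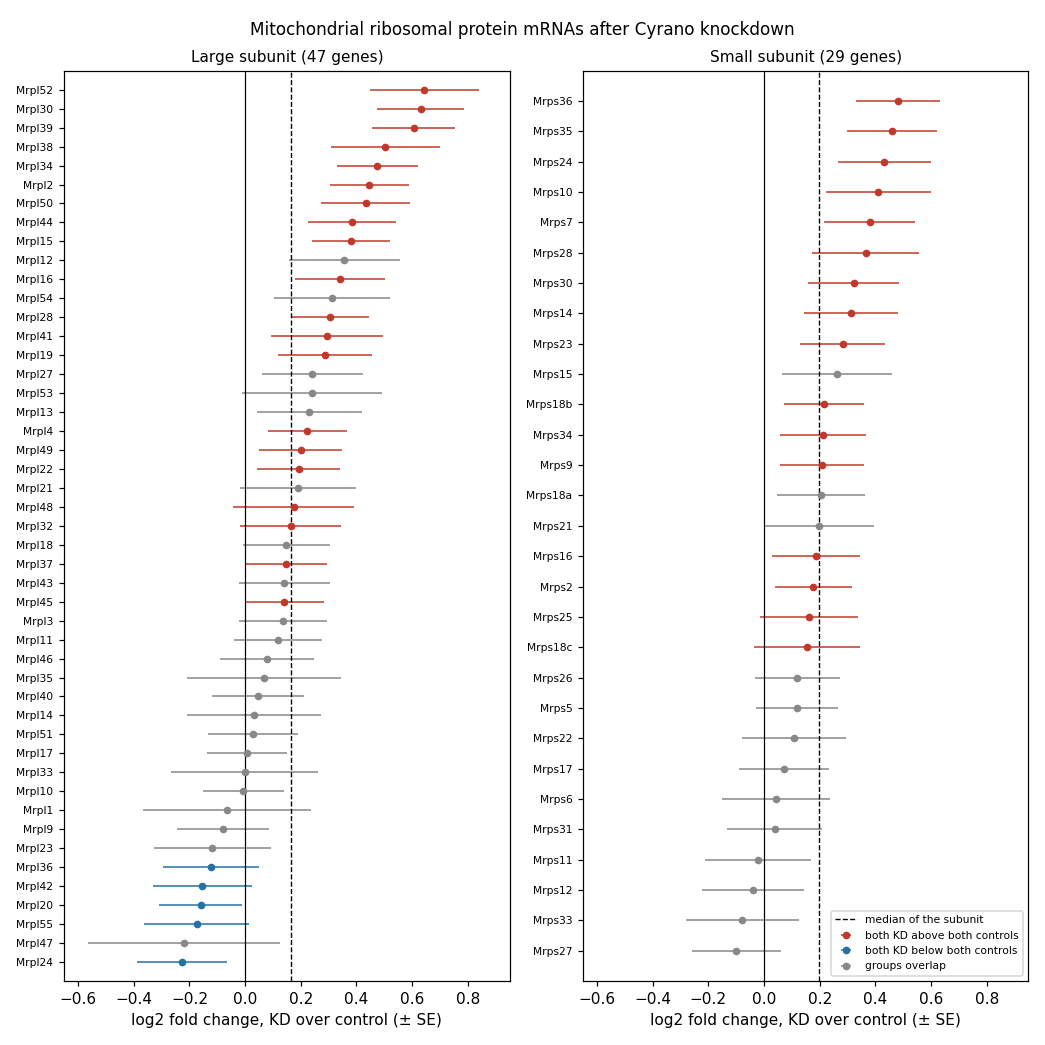
Log2 fold change of knockdown (KD) over control for each mitoribosomal gene, large subunit left and small subunit right, with the standard error as the bar and the subunit's median as the dashed line. Most points lie to the right of 0, with medians of 0.16 and 0.20, against -0.002 over all tested genes. None of the 76 genes was called by edgeR. At an unadjusted p under 0.05, 15 were higher (19.7%), where 6.18% of all tested genes were.

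The large subunit holds the peptidyl transferase centre, where the peptide bond forms. Its member with the lowest unadjusted p was Mrpl39, a mitochondria-specific protein related to threonyl-tRNA synthetase. Mrpl39 had 147 and 169 CPM in the knockdown libraries, against 96.9 and 111 CPM in the controls. Both knockdown libraries lay above both controls, and the log2 fold change was 0.61 ± 0.15 (± SE throughout; edgeR adjusted p = 0.17). DESeq2 put the change at 0.60 (adjusted p = 0.040).

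Mrpl30, which encodes the counterpart of bacterial protein L30, had 69.6 and 79.9 CPM after knockdown, against 47.8 and 48.8 CPM in the controls. The controls were nearly level, and both knockdown libraries stood well above them (log2 fold change 0.63 ± 0.16, edgeR adjusted p = 0.17). Mrpl34, counterpart of bacterial L34, showed the same tight groups, with 101 and 93.7 CPM after knockdown and 69.2 and 70.7 CPM in the controls. Its log2 fold change was 0.47 ± 0.15 (edgeR adjusted p = 0.23).

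Mrpl52, a mitochondria-specific protein, had the largest log2 fold change of the 76, 0.64 ± 0.20 or 1.56-fold (edgeR adjusted p = 0.24). It had 328 and 237 CPM in the knockdown libraries, against 151 and 211 CPM in the controls, so that knockdown library 2 and control library 2 were close to each other. Mrpl2, a homolog of the L2 protein that lies next to the catalytic rRNA, had 138 and 145 CPM after knockdown and 99.5 and 108 CPM in the controls. Here the knockdown libraries were again clear of the controls, by 0.45 ± 0.14 on the log2 scale (edgeR adjusted p = 0.24). Mrpl15, counterpart of bacterial L15, had 267 and 239 CPM in the knockdown libraries and 197 and 192 CPM in the controls (log2 fold change 0.38 ± 0.14, edgeR adjusted p = 0.33).

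The proteins of the flexible stalk, which recruits translation factors to the ribosome, had unlike values. Mrpl12, the L7/L12 protein of the stalk, was the most abundant member by CPM. It had 472 and 384 CPM after knockdown, against 261 and 407 CPM in the controls. The groups overlapped, since control library 2 lay above knockdown library 2, and the log2 fold change of 0.36 ± 0.20 was not called (edgeR adjusted p = 0.52). Mrpl10, which anchors the stalk, had 164 and 148 CPM in the knockdown libraries and 147 and 167 CPM in the controls (-0.01 ± 0.15, edgeR adjusted p = 0.99). Mrpl11, at the stalk base, had 68.8 and 71.3 CPM after knockdown and 58.6 and 70.3 CPM in the controls (0.12 ± 0.16, edgeR adjusted p = 0.81).

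Lower levels after knockdown were found in a few large subunit genes. Mrpl24, counterpart of bacterial L24, had 44.8 and 42.4 CPM in the knockdown libraries, against 52.3 and 49.8 CPM in the controls, the lowest log2 fold change of the 76 (-0.23 ± 0.16, edgeR adjusted p = 0.62). Mrpl20, Mrpl36, Mrpl42 and Mrpl55 also had both knockdown libraries below both controls, with log2 fold changes of -0.16, -0.12, -0.15 and -0.17, chosen for naming after their values were seen. With Mrpl24 these were 5 of the 47 large subunit genes (10.6%), where 21.3% of all tested genes were so placed. Mrpl47, the L29 protein of the mitochondrial ribosome, was the least abundant member. It had 4.88 and 3.90 CPM after knockdown and 5.96 and 4.29 CPM in the controls, from 81 to 109 raw counts, and its log2 fold change of -0.22 ± 0.34 carries the widest error of the large subunit. The 36 large subunit genes not named by the rule ran from -0.17 for Mrpl55 to 0.50 for Mrpl38, with 28 above 0 and 8 below, and their lowest edgeR adjusted p was 0.33. Mrpl38 was at 0.22 without control library 1 and at 0.86 without control library 2.

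The small subunit binds the mRNA and decodes it. Among its own proteins Mrps35, a mitochondria-specific protein, had 94.7 and 94.5 CPM after knockdown, against 60.1 and 77.4 CPM in the controls. The knockdown libraries were level and above both controls, while the controls were apart (log2 fold change 0.46 ± 0.16, edgeR adjusted p = 0.29). Mrps24, the mitochondrial form of the bacterial S3 protein, was the most abundant small subunit gene, with 187 and 156 CPM in the knockdown libraries and 110 and 144 CPM in the controls. Its log2 fold change was 0.43 ± 0.17 (edgeR adjusted p = 0.35).

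Mrps7, counterpart of the S7 protein that nucleates the head of the bacterial small subunit, had 112 and 123 CPM after knockdown, against 77.4 and 103 CPM in the controls. On the log2 scale it was 0.38 ± 0.16 higher (edgeR adjusted p = 0.39). Mrps10 had 41.3 and 33.9 CPM in the knockdown libraries and 26.2 and 30.3 CPM in the controls (0.41 ± 0.19, edgeR adjusted p = 0.43). In both genes the groups did not overlap, but the nearest libraries of the groups lay closer together than the libraries within either group.

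Mrps12, homolog of the S12 protein of the decoding centre, went with neither group. It had 86.1 and 62.2 CPM after knockdown and 67.8 and 84.6 CPM in the controls (-0.04 ± 0.18, edgeR adjusted p = 0.96). Mrps16 and Mrps22, both known from human mutations that cause mitochondrial disease, had log2 fold changes of 0.19 ± 0.16 for Mrps16 and 0.11 ± 0.19 for Mrps22. Mrps22 was at -0.01 without control library 1, and Mrps16 at 0.07 without knockdown library 1. The lowest log2 fold changes of the subunit were those of Mrps27 (-0.10 ± 0.16), an RNA-binding protein, and Mrps33 (-0.08 ± 0.20), and both overlapped between groups. In 16 of the 29 genes the knockdown libraries were the 2 highest, and in none the 2 lowest, where 22.3% and 21.3% of all tested genes were so placed. The 14 small subunit genes not named by the rule ran from -0.02 for Mrps11 to 0.37 for Mrps28, with 13 above 0, and their lowest edgeR adjusted p was 0.49.

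The 3 genes Mrps18a, Mrps18b and Mrps18c descend from the single S18 gene of bacteria, and their products occupy different places in the ribosome. Mrps18b had 120 and 121 CPM after knockdown and 96.8 and 111 CPM in the controls (log2 fold change 0.21 ± 0.14). Mrps18a had 91.6 and 74.8 CPM in the knockdown libraries and 68.1 and 76.3 CPM in the controls (0.20 ± 0.16), and Mrps18c had 26.8 and 26.6 CPM after knockdown and 22.4 and 25.5 CPM in the controls (0.15 ± 0.19). The edgeR adjusted p values ran from 0.60 to 0.80. Without knockdown library 1 Mrps18a was at 0.045, without control library 1 Mrps18b was at 0.12 and Mrps18c at 0.06, and the length and GC offset put Mrps18c at -0.02.

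A few Mrps symbols do not mark a small subunit protein. In structures of the mammalian mitochondrial ribosome the products of Mrps30 and Mrps18a sit in the large subunit, and Mrps36 encodes a subunit of the alpha-ketoglutarate dehydrogenase complex of the citric acid cycle. Mrps36 had the largest log2 fold change of the Mrps genes, 0.48 ± 0.15, with 94.4 and 93.7 CPM in the knockdown libraries and 61.9 and 72.8 CPM in the controls (edgeR adjusted p = 0.24). Mrps30 had 76.9 and 86.7 CPM after knockdown and 58.3 and 72.6 CPM in the controls (0.32 ± 0.16, edgeR adjusted p = 0.47). With subunits taken from the structure, the medians were 0.17 over 49 large and 0.18 over 26 small subunit genes.

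**Figure D2:**
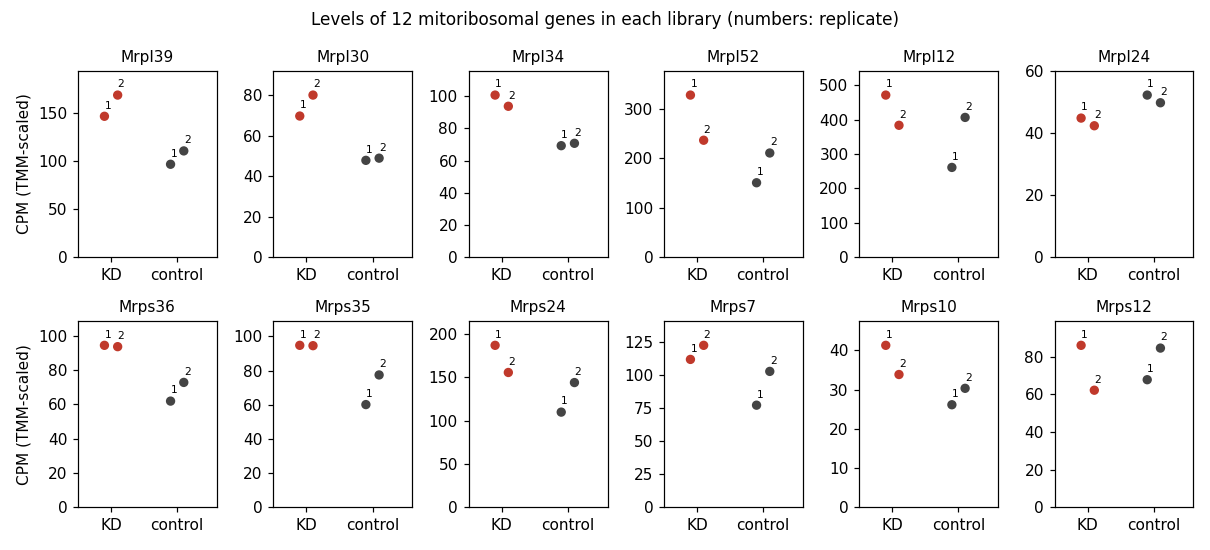
CPM of 12 of the 76 genes in the 2 knockdown (KD) and 2 control libraries, 1 point per library with its replicate number. Mrps36 is included by its symbol. In Mrpl30 and Mrpl34 the controls are level, while in Mrpl12 control library 2 (407 CPM) lies above knockdown library 2 (384 CPM).

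The subunits, taken by symbol with Mrps36 included, were then compared as sums. Large subunit genes took 0.402% and 0.387% of all gene counts in the knockdown libraries, against 0.291% and 0.342% in the controls. Small subunit genes took 0.213% and 0.212% after knockdown, against 0.162% and 0.190% in the controls. For both subunits the knockdown libraries agreed closely and lay above both controls, and the means were 24.5% (large) and 20.7% (small) higher. With Rn45s and Lars2, whose locus holds an rRNA-derived repeat, left out of the total, the means were 17.1% higher for the large and 13.6% higher for the small subunit. The small subunit's difference of 0.0365 percentage points was 0.0230 without control library 1, and the large subunit's 0.0776 was 0.0522.

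The ratio of large to small subunit counts, which does not depend on library size, was 1.88 and 1.83 after knockdown and 1.79 and 1.81 in the controls. The mean was 1.86 ± 0.0376 after knockdown and 1.80 ± 0.0085 in the controls (SD, n = 2 each), a difference of 0.057 that was 0.030 without knockdown library 1. This difference rested on the pair Mrpl12 and Mrpl52: without them the ratio was 1.51 and 1.52 in the knockdown libraries and 1.55 and 1.48 in the controls. The medians of the log2 fold changes, which weight every gene alike, differed by -0.04 (large minus small), and this difference was 0.03 without knockdown library 1. No test of a difference between the subunits was made, since members chosen with results in view support none.

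**Figure D3:**
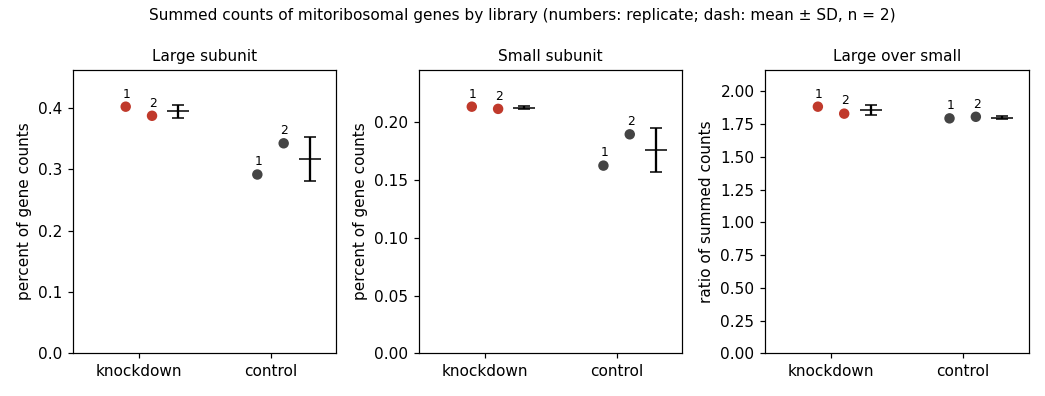
Percent of all gene counts taken by large and small subunit genes, and the ratio of their summed counts, in each library, with the mean ± SD of 2 libraries. The knockdown libraries lie at 0.402% and 0.387% for the large subunit, above both controls, and the ratios differ little between groups.

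How far the groups lay apart depended on control library 1. Control library 1 was the lowest of the 4 libraries in 52 of the 76 genes, control library 2 in 11, knockdown library 2 in 10 and knockdown library 1 in 3. The median log2 ratio of control library 2 over control library 1 was 0.16 over the 76 genes, and 60 of them were higher in control library 2, where the median over all tested genes was 0.01. Against control library 1 the median log2 ratios were 0.28 for knockdown library 1 and 0.24 for knockdown library 2. Against control library 2 they were 0.12 for knockdown library 1, with 55 of the 76 genes above 0, and 0.07 for knockdown library 2, with 46 above 0. Between the knockdown libraries the median was -0.08, library 2 over library 1.

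Without control library 1 the median log2 fold change was 0.08 for the large and 0.13 for the small subunit, 53 of the 76 genes were above 0, and 5 were higher at an unadjusted p under 0.05, where 4.89% of all tested genes were. Without control library 2 the medians were 0.24 (large) and 0.26 (small), with 67 genes above 0 and 19 higher at an unadjusted p under 0.05 (7.34% of all tested genes). Mrpl12 had a log2 fold change of 0.07 without control library 1, and Mrpl52 one of 0.42, whereas Mrpl30 (0.61), Mrpl34 (0.46) and Mrpl15 (0.40) kept nearly the same value. Mrpl30, Mrpl34 and Mrpl15 were named for low p values over the same 4 libraries, which favours genes whose controls agree. Among the Mrps genes the log2 fold change without control library 1 was 0.29 for Mrps35, 0.25 for Mrps24, 0.19 for Mrps7, 0.37 for Mrps36 and 0.17 for Mrps30. Without knockdown library 1, 7 members were higher at an unadjusted p under 0.05 (4.89% of all tested genes), and the log2 fold change was 0.38 for Mrpl52, 0.19 for Mrpl12 and 0.25 for Mrps10.

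**Figure D4:**
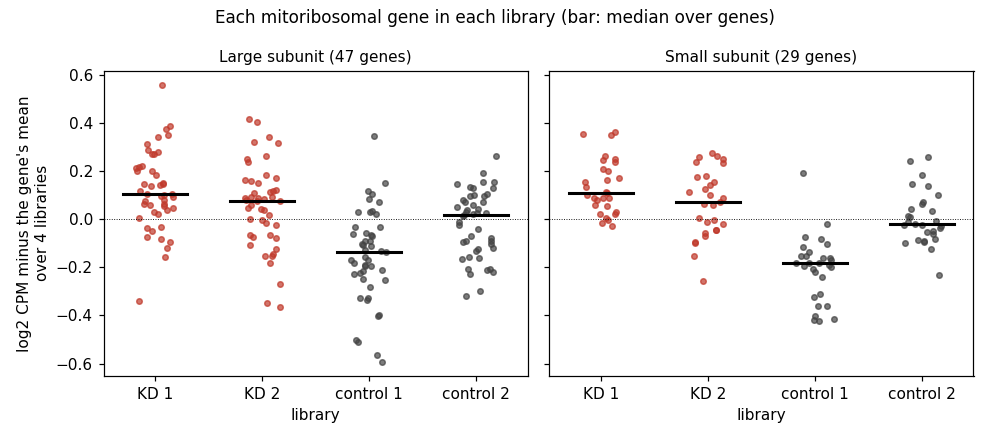
Log2 CPM of each mitoribosomal gene minus its mean over the 4 libraries, knockdown (KD) libraries left and controls right, with the median over genes as a bar. The bars lie at 0.10 and 0.08 in the knockdown libraries for the large subunit and at -0.14 in control library 1, and control library 2 (0.01) lies between.

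Mitoribosomal transcripts are short, and short transcripts of any kind leaned higher in these libraries. The median transcript length was 1224.5 bases over the 76 genes and 3040 over all tested genes. With all tested genes in 5 equal groups by length, the group of shortest transcripts had a median log2 fold change of 0.13 with 65.6% of its genes above 0. The 51 members in that group had a median of 0.20, with 39 above 0. The median of the members was above that of all genes in each of the 5 length groups, though only 3 to 8 members fell in each of the others. Across the 76 genes length and log2 fold change had a Spearman rho of -0.06, and across all 13114 tested genes with a length it was -0.24, as a description with no test.

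When the fit carried an offset for length and GC of the transcript, the median log2 fold change was 0.11 for the large and 0.12 for the small subunit, and 52 of the 76 genes were above 0 (68.4%), against 50.6% of all tested genes. At an unadjusted p under 0.05, 12 members were then higher and 2 lower, where 6.43% of all tested genes were higher and 705 of 13199 lower. None was called, and the lowest edgeR adjusted p was that of Mrpl39, 0.14 at a log2 fold change of 0.54. The 2 lower ones were Mrpl24 (-0.36) and Mrpl42 (-0.34). What lies behind the length trend was not tested.

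**Figure D5:**
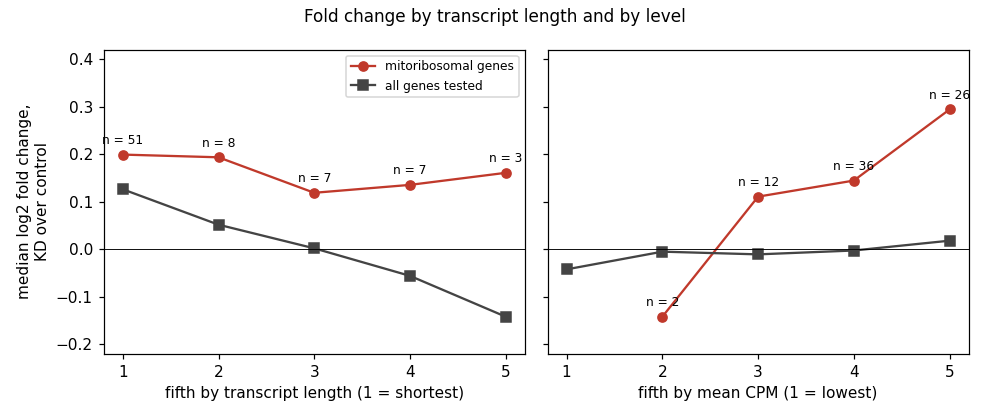
Median log2 fold change of knockdown (KD) over control in 5 equal groups of all tested genes, by transcript length (left) and by mean CPM (right), for mitoribosomal genes and for all tested genes. Mitoribosomal medians stay between 0.12 and 0.20 across lengths and reach 0.29 in the group of highest level, where n gives the members in each group.

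Log2 fold changes were larger among the abundant members. Of the 26 members in the group of highest CPM, 25 were above 0 with a median log2 fold change of 0.29, where all genes of that group had a median of 0.02. The 36 members in the next group had a median of 0.14, and the 12 in the one after it 0.11. Over the 76 genes, level and log2 fold change had a Spearman rho of 0.45, with 4 libraries shared by every point and no test. Per transcript length, the level was highest for Mrpl52 at 555 CPM per kilobase, followed by Mrpl12 at 290, Mrps24 at 150 and Mrpl34 at 138, and lowest for Mrpl47 at 1.41. Among small subunit genes Mrps36 at 115 and Mrps18b at 104 came next after Mrps24, and Mrps25 was lowest at 5.85. Mrps25, a mitochondria-specific protein, had a log2 fold change of 0.16 ± 0.18, which was 0.07 without knockdown library 2. The subunits had median levels of 43.3 (large) and 39.7 (small) CPM per kilobase. These levels use the longest RefSeq-linked transcript, and a gene that is mostly read from a shorter form is understated.

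By origin, 16 of the 17 mitochondria-specific large subunit genes had a log2 fold change above 0 (median 0.20), and 20 of the 30 with a bacterial homolog (median 0.14). In the small subunit the order was the other way, with 8 of 10 mitochondria-specific genes (median 0.14) and 16 of 18 with a bacterial homolog (median 0.20) above 0. In the main fit origin therefore did not order the fold changes alike in the 2 subunits, which follow the symbols here. With an offset for length and GC of the transcript, mitochondria-specific genes had the higher median in both. It was 0.14 against 0.05 in the large and 0.15 against 0.12 in the small subunit. Above 0 were then 13 of 17 against 19 of 30 large and 6 of 10 against 13 of 18 small subunit genes. The difference was not tested.

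Proteins of the same ribosome under other symbols pointed the same way. Of 7 such genes 6 were above 0, where 49.8% of all tested genes were. Their log2 fold changes ran from -0.11 to 0.68 with a median of 0.11. None was called, where 0.0833% of all tested genes were. The 2 with the lowest p values are given here. Mrp63, a small large subunit protein, had 48.3 and 64.9 CPM after knockdown and 35.8 and 34.95 CPM in the controls (0.68 ± 0.18, edgeR adjusted p = 0.18). Ptcd3, a pentatricopeptide protein of the small subunit, had 94.5 and 100.2 CPM in the knockdown libraries and 78.1 and 64.5 CPM in the controls (0.45 ± 0.15, edgeR adjusted p = 0.28).

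The factors that build and serve the mitoribosome were split more evenly. Among all tested genes 49.8% were above 0 and 0.0833% were called. Of 26 assembly and rRNA modification factors 12 were above 0, with a median log2 fold change of -0.06, none called and none at an unadjusted p under 0.05. The lowest p values among them belonged to Gtpbp5, an assembly GTPase (0.42 ± 0.20), and Tfb1m, which methylates the small subunit rRNA (0.52 ± 0.29). Of 15 translation factors 9 were above 0 (median 0.10, none called, none at an unadjusted p under 0.05). The elongation factor gene Gfm1 (-0.22 ± 0.15) and the ribosome recycling factor gene Mrrf (-0.29 ± 0.22) had the lowest p values there. Of 19 transcription and RNA factors 12 were above 0 (median 0.05, none called). At an unadjusted p under 0.05, 6.18% of all tested genes were higher and 5.43% lower. Of the 19 factors, 3 were higher there (Rexo2, Pnpt1 and Trmt10c) and 1 lower (Mterfd3). Among these Rexo2, a mitochondrial oligoribonuclease gene, had 99.6 and 104 CPM after knockdown and 66.6 and 69.0 CPM in the controls (0.58 ± 0.14, edgeR adjusted p = 0.17), and the RNA-degrading phosphorylase gene Pnpt1 had 0.43 ± 0.15 (0.28). The difference between these lists and the ribosomal proteins was not tested.

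The members are spread over 17 chromosomes, with at most 10 on 1 of them. In the GENCODE M21 annotation 17 of the 76 (22.4%) start within 1000 bases of a protein-coding gene that runs the other way, against 10.01% of tested protein-coding genes. Of the 17 partners 8 were above 0, with a median log2 fold change of -0.07. Mrpl30 (0.63) and its partner Mitd1 (0.13 ± 0.28) are an example. Exons of 23 members overlap those of another protein-coding gene, among them Mrpl46 (0.08) and Mrps11 (-0.02), which overlap each other, and the sources used here do not say whether reads were counted by strand. Over the 53 members with no such overlap the median log2 fold change was 0.19, with 43 above 0. Mrpl23, Mrpl48 and Mrps36 have pseudogene copies annotated under their own symbol, so that reads they share with a copy may be missing from their counts. Copies annotated under other symbols were not looked for.

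Primitive endoderm is a cell type that stem cell cultures can form. In 6 of its 7 markers both knockdown libraries lay above both controls, where 22.3% of all tested genes were so placed. In Dab2 the groups overlapped. All 7 had a log2 fold change above 0 (median 0.85), where 49.8% of all tested genes did. At an unadjusted p under 0.05, 5 were higher, against 6.18% of all tested genes. None was called by edgeR. DESeq2 called 2, where it called 1.36% of the genes to which it gave an adjusted p. Before TMM scaling the summed level of the 7 markers was 162 and 207 CPM after knockdown, against 97.4 and 118 in the controls. None of the 7 was at 0 in any library. The 7 fibroblast or feeder markers summed to 1605 and 1407 CPM after knockdown and 1564 and 1270 in the controls, with Col3a1 at 0 in a library. Only 5 of these 7 passed the filter on low counts. On the TMM scale Col1a1 lay at 0.81 to 2.49 CPM and Pdgfrb at 3.71 to 7.20 CPM over the 4 libraries. Other genes of the list therefore made up most of this sum. The 6 trophectoderm markers summed to 26.4 and 27.7 CPM after knockdown and 29.1 and 28.9 in the controls, with Elf5 at 0 in a library. The part of such cells in the mitoribosomal values was not tested.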

How the data were processed

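Each deposited file holds the raw count of reads per gene symbol for 1 of the 4 libraries, in whole numbers and not normalized. TopHat, HTSeq, SAMtools and bedtools and the build mm9 are named, without versions, per the submitters' processing notes. Annotation, overlap mode and strand setting of the counting are not stated there. Libraries were strand-specific (dUTP) and poly(A)-selected, per the labels' protocols. The 5 closing tallies that name no gene were left out: alignments that were not unique made up 28.7% and 26.1% of tallied reads in the knockdown libraries and 32.8% and 30.2% in the controls, and reads outside genes 6.39% to 7.61%.

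Sample titles gave groups and replicate numbers. Nothing says how cultures were separated, so the p-values reflect the spread of these libraries, which may be technical. Replicates differed far beyond sampling noise (chi-square per degree of freedom 20.5 for knockdown and 25.4 for control), so each counted once.

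The main test was edgeR 4.0.16 (R 4.3.3): filterByExpr with a minimum count of 10, TMM factors, robust quasi-likelihood F test of knockdown over control with group as the only term, two-sided, Benjamini-Hochberg adjustment over all 13199 tested genes and a threshold of 0.05. Standard errors were derived from the log2 fold change and its F. The procedure was tested on simulated data with changes larger than any found in the 76 genes. It does not show how often changes of their size would be called. Alternatives were DESeq2 1.42.0, limma-voom (limma 3.58.1), other scalings and filters, each library left out, a replicate block, and an offset for length and GC. With 2 libraries against 2, an exact permutation test cannot go below p = 0.333.

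Lengths came from GENCODE M21 (GRCm38), matched by symbol for 98.4% of symbols and all 76 members, as the longest transcript with a RefSeq ID. That build is not the files' build, so its positions serve only for neighbours and promoters. The members and lists were chosen with earlier results of these data known, and the motif letters after the values were seen. Named genes were, in each subunit, those with the 6 lowest p values, the 2 highest and 2 lowest log2 fold changes, and the 3 highest and the lowest level per length, with the stalk and S18 proteins, Mrps12, Mrps16, Mrps22, Mrps30 and Mrps36, and the 2 lowest p values of each further list of the pathway. Other genes were named after their values were seen. Marker lists are given mainly as sums and counts.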

Additional observations from a re-analysis of the deposited data

How the results depend on the processing

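No member was called lower under any alternative. The number called higher, 0, became 3 with no filter on low counts (Mrpl30, Mrpl39 and Mrpl52) and 1 by DESeq2 (Mrpl39), and was 0 to 1 without each library in turn, the 1 being Mrpl52 without knockdown library 2. Same-numbered libraries share only a number in the labels, and their deviations correlated at 0.24, so the replicate block is not part of the main result. With the block 11 members were called higher, and 9 with the block and the length and GC offset. The alternatives for the counts of genes above 0 and at an unadjusted p under 0.05, and the ratio without Mrpl12 and Mrpl52, were chosen after seeing the data. Over all genes, 11 were called by the main test, 332 with no filter, 133 by DESeq2, 50 with library size only, 26 with upper-quartile factors, 7 with the offset, 6 with RLE factors or the CPM filter, 4 with no robust estimation, 3 by limma-voom, 955 with the block, 879 with block and offset, and 0 to 191 without each library in turn. Members above 0 numbered 51 to 67 over all alternatives. Those higher at an unadjusted p under 0.05, 15 at first, were 5 to 19 without each library in turn.

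The large subunit median of 0.16 ran from 0.078 to 0.237 without each library in turn, and stayed above 0 throughout. The difference of medians, large minus small, was -0.035 and moved to -0.026 by limma-voom, -0.024 with the replicate block, -0.0070 with the length and GC offset, -0.010 with block and offset together, -0.0085 with subunits by structure, and from -0.054 to 0.025 without each library in turn, so its direction turned. The ratio of large to small counts was 0.057 higher after knockdown, 0.091 with subunits by structure, 0.12 per transcript length and 0.0014 without Mrpl12 and Mrpl52. It was not moved beyond its replicate spread by leaving out a library.

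Some small log2 fold changes turned sign, none of them called. Without each library in turn, Mrpl47 ran from -0.442 to 0.034, Mrps27 from -0.240 to 0.050, Mrps33 from -0.287 to 0.166, Mrpl10 from -0.098 to 0.087, Mrpl11 from -0.0077 to 0.255, Mrps12 from -0.299 to 0.180 and Mrps22 from -0.015 to 0.238. Control library 1 left out turned Mrpl47, Mrps27, Mrpl11 and Mrps22, and control library 2 or knockdown library 2 left out turned Mrps33, Mrpl10 and Mrps12. With library size only, Mrpl10 had 0.045 and Mrps12 0.0094. With the length and GC offset Mrps18c had -0.023 and Mrps22 -0.083, and with the replicate block added -0.021 and -0.079. The causes were not tested. Library size only moved the median of all genes to 0.05. Of the alternatives for single named members, 377 kept direction and call and 22 became called. Precision is limited by 2 libraries per group and a biological coefficient of variation of 17.4%.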
